A study of Mus musculus with 6 samples.

Results

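The genes described here are the inflammatory caspases Casp1 and Casp4, the gasdermins Gsdmd and Gsdme, the adaptor Pycard and the inflammasome sensors Nlrp3, Nlrc4, Naip2, Naip5 and Aim2. They were taken by symbol, without reference to their values, from a table of estimated counts for 23608 gene rows. All 10 were found, and 8 of them passed the filter on low counts that left 11614 genes for testing; Casp1 and Nlrp3 did not pass and are given by their counts. Coordinates are those of GENCODE M21 on GRCm38, the assembly also called mm10.

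Bulk RNA-seq was performed on mouse leukemia cells that had grown in transplanted recipients, and 3 libraries labelled oil were compared with 3 labelled tamoxifen, each from 1 mouse. The leukemia was made from fetal liver cells of genotype Usp18+/f UBCER-Cre by a retrovirus that carries GFP and AML1-ETO9a (AE9a), a shortened form of the leukemic AML1-ETO fusion. UBCER-Cre is a Cre recombinase under the ubiquitin C promoter that acts in all tissues once tamoxifen is given, so both groups share AE9a, the Cre and 1 floxed Usp18 allele. The oil group is Usp18+/f. In the tamoxifen group, Usp18+/Δ, the floxed allele is meant to be removed, and a group that received tamoxifen without a floxed allele was not analysed here. The methods of the study give irradiated C57BL/6 recipients of 8 to 12 weeks and 3 injections, and per the labels the injections began once the mice were sick. GFP+ Lin- c-Kit+ splenocytes were sorted 3 days after the first injection. Whether all recipients received cells of a single leukemia was not stated.

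Inflammasomes are complexes in which a sensor of the cytosol recognises a microbial or danger signal and activates an inflammatory caspase. Caspase-1 matures interleukin-1 beta and interleukin-18, and caspase-1 and caspase-11 (the product of mouse Casp4) cut gasdermin D, whose amino-terminal part forms pores in the plasma membrane. The lytic death that follows is pyroptosis. Gasdermin E is cut in the course of apoptosis and forms pores of the same kind. These genes are best known from macrophages and other myeloid cells, and the study asked whether partial loss of Usp18, an inhibitor of interferon signalling, moves leukemia cells toward pyroptosis.

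The libraries held from 17118964 to 20741399 counts. Values are in CPM, in which counts are scaled to the size of the library after TMM normalization of the tested genes, and the libraries carry the numbers of the deposited table. The targeted gene, Usp18, had 9.12, 10.9 and 11.2 CPM in oil 1, 3 and 4, against 15.2, 28.0 and 19.4 CPM in the libraries labelled tamoxifen 1, 2 and 4. It was therefore not lower in the libraries labelled tamoxifen (log2 fold change 0.998, SE 0.23, edgeR adjusted p-value 0.0739), and each direction below is between the groups as labelled. Over all tested genes, 203 were higher and 31 lower at an edgeR adjusted p-value under 0.05. Tamoxifen 4 stood apart from the other tamoxifen libraries. Without it, 2278 genes were higher and 2024 lower, so results are given with and without that library. Kit, the receptor used in the sort, was present in all libraries at 439.5 CPM or more. The pan-leukocyte gene Ptprc, which encodes CD45, had at most 11.5 counts in any library, although hematopoietic cells express it. The other 6 genes of the list of the sorted cells were present, with oil means of 568 CPM for Runx1, 500.3 for Gata2, 447 for Kit, 386 for Myb, 73.7 for Spi1 and 9.95 for Cd34.

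The promoters of 9 of the 10 genes were matched by symbol in RefSeq on GRCm38.p6, and Gsdmd was not among them. Casp4 is shown first because it had the largest fold change of the 8, with the 250 bases before its start. Naip5 and Naip2 follow because they are neighbouring paralogs with unlike changes. Each is given 5′ to 3′ on the strand of its gene.
Casp4 (chr9:5308599-5308848, plus strand): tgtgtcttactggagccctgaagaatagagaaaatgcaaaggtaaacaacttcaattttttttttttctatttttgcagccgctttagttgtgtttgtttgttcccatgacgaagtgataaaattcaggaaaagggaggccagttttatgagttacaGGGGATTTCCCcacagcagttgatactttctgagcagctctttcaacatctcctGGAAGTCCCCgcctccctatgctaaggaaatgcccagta
Naip5 (chr13:100247337-100247586, minus strand): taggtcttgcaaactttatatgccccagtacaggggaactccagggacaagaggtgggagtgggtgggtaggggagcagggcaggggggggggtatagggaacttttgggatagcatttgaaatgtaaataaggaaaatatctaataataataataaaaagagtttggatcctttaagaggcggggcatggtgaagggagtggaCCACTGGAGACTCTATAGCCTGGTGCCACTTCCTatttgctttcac
Naip2 (chr13:100202123-100202372, minus strand): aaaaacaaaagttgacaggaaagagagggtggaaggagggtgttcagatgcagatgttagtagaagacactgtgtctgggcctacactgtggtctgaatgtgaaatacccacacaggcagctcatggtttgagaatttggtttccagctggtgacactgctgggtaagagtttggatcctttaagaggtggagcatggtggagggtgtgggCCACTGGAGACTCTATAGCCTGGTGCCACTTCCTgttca

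In the Casp4 sequence the capitals mark matches to the NF-kB consensus. They lie from -93 to -83, where 2 overlapping matches were merged, and from -39 to -30 relative to the first of 2 RefSeq starts. Relative to the second start the same matches lie from -104 to -94 and from -50 to -41. Windows of 300 bases, with 250 before and 50 after the start, were searched on both strands for 32851 promoters, among them 11 of the 9 genes, and 8.46% of all windows held an NF-kB consensus. Naip5 had 1 match, from -218 to -209, and Nlrp3 had a match as well. In the Naip5 and Naip2 sequences the capitals mark the longest run of bases that both share, 34 bases from -46 to -13 in Naip5 and from -39 to -6 in Naip2. A stretch of 83 aligned positions around that run, from -92 to -10 in Naip5, held 77 identical bases, or 92.8%. Over whole windows the promoters of Naip5 and Naip2 were 61.6% identical. Neither the interferon-stimulated response element, searched as GAAA repeated after any 2 bases and present in 3.44% of all windows, nor the gamma-activated site TTCNNNGAA, in 8.30%, was found in any window of the 9 genes. The p53 half-site consensus was in 8.36% of all windows and in those of Nlrp3 and Pycard. The PU.1 core GAGGAA was in 28.3% of all windows and in those of Aim2, Casp1, Nlrp3 and Pycard, and the GATA motif AGATAA in 11.2% and in that of Nlrp3. Nlrc4, Naip2 and Gsdme held none of the 6 motifs. A match describes letters in these windows only.

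Before any comparison, the levels were ordered per kilobase of the longest protein-coding transcript. In the oil libraries Gsdmd was the highest, at a mean of 44.0 CPM per kilobase. Naip2 followed at 15.1, Pycard at 8.33, Aim2 at 6.72, Gsdme at 3.01 and Naip5 at 2.72 CPM per kilobase. Gsdme and Naip5 overlapped in their ranges across the oil libraries, and the other neighbours in this order did not. Casp4 at 0.612, Nlrc4 at 0.310 and Casp1 at 0.0929 CPM per kilobase were far lower. By this length, Gsdmd was the most abundant of the 10 genes, and the inflammatory caspases Casp4 and Casp1 were among the least abundant. The order depends on the length used. For Pycard the longest transcript had 3800 bases, nearly the whole span of the gene, and a shorter transcript would raise its value. Other lengths were not tried, so the places of Pycard below Gsdmd and Naip2 hold for this length only. In the libraries labelled tamoxifen the order of the means put Naip5, at 6.97 CPM per kilobase, above Gsdme, at 4.35, although their ranges overlapped, and the ranges of Pycard, Aim2 and Naip5 overlapped as well. Casp4 reached 2.30, Nlrc4 0.945 and Casp1 0.581 CPM per kilobase.

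Of the 8 tested genes, Casp4 and Naip5 were higher in the libraries labelled tamoxifen at an edgeR adjusted p-value under 0.05, and 0 were lower, also at an unadjusted p-value under 0.05. Over all tested genes 1.75% were called higher and 0.267% lower by the same rule. The fitted log2 fold changes of the 8 were all positive (median 0.40), and over all tested genes the median was 0.00012 and 5809 of 11614 were positive. The tamoxifen libraries all lay above the oil libraries for 5 of the 8 (Casp4, Naip5, Nlrc4, Aim2 and Gsdmd) and for 13.3% of all tested genes, and they all lay below for 0 of the 8 and for 11.8% of all. The DESeq2 Wald test called 3 of the 8 higher, adding Nlrc4, where it called 6.14% of all genes higher and 1.99% lower. Limma-voom called 0 of the 8, with 3 at an unadjusted p-value under 0.05, where it called 0.413% of all genes higher and 0.0517% lower. Under the other edgeR settings, the share of all tested genes called higher was 1.74% with DESeq2 size factors, 1.99% with upper-quartile scaling, 2.42% without a low-count filter, 1.17% at a mean of at least 50 counts, 1.85% with a replicate block and 1.79% with unrounded counts. It was 0.0674% without oil 1, 0.135% without oil 3, 0.0675% without oil 4, 0.0936% without tamoxifen 1 and 0.119% without tamoxifen 2, and 19.2% without tamoxifen 4.

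**Figure D1:**
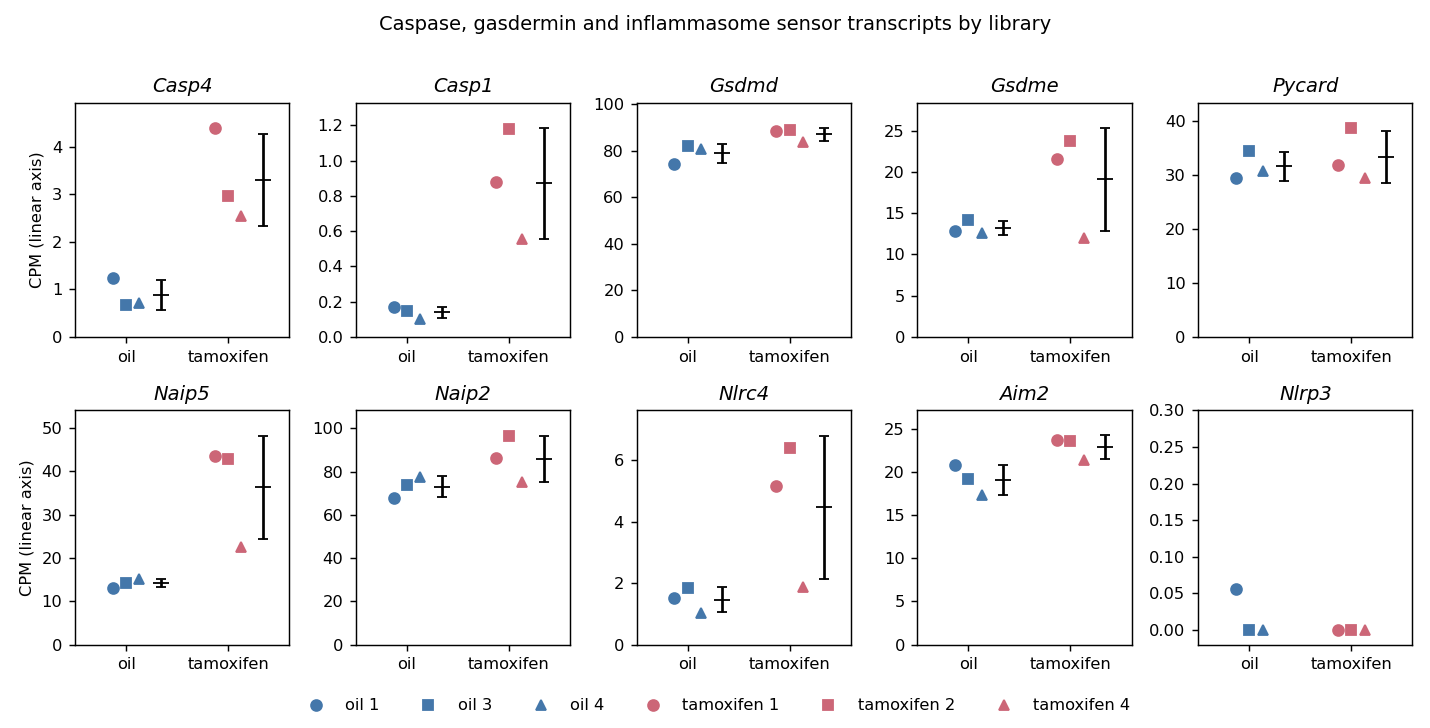
Expression of the 10 genes in each library, in CPM on a linear axis, with oil libraries in blue and tamoxifen libraries in red; bars give the mean and SD of the 3 libraries of a group and are left out for Nlrp3, which had 1 count in 1 library. Casp4, Casp1 and Naip5 were higher in each tamoxifen library than in any oil library, Nlrc4 was close to the oil range in tamoxifen 4, and Gsdmd and Pycard moved little.

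Casp4, which encodes the sensor of cytosolic lipopolysaccharide and caspase of the non-canonical pathway, lies on chromosome 9 from 5308828 to 5336783 on the plus strand (ENSMUSG00000033538). It had 1.24, 0.679 and 0.720 CPM in oil 1, 3 and 4 and 4.39, 2.95 and 2.54 CPM in tamoxifen 1, 2 and 4. The groups did not overlap, and the lowest tamoxifen library was above the highest oil library. The means were 0.879 ± 0.312 CPM (SD, n = 3) and 3.30 ± 0.971 CPM (SD, n = 3), a 3.75-fold difference. The log2 fold change was 1.91 (SE 0.37, edgeR adjusted p-value 0.0454). The transcript was low, since the oil libraries held 21.5, 13.5 and 14 counts and the tamoxifen libraries 80, 50 and 46.5. Without tamoxifen 4 the log2 fold change was 2.07 with an edgeR adjusted p-value of 0.00287. Without any of the other 5 libraries it lay between 1.65 and 2.23 and the adjusted p-value between 0.117 and 0.211, so the call was lost.

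Casp1, which encodes the effector caspase of canonical inflammasomes, adjoins Casp4 on the same strand (chromosome 9, 5298517 to 5307265, ENSMUSG00000025888). Its counts were 3, 3 and 2.5 in oil 1, 3 and 4 but 16, 19.5 and 10 in the tamoxifen libraries. Each tamoxifen library was above each oil library, but the gene was near the detection limit in oil, where a count of 3 corresponded to 0.145 to 0.169 CPM. Summed over the rounded counts of a group, there were 8 counts in oil and 46 in tamoxifen, a depth-scaled ratio of 6.24 with an exact 95% interval for counting error of 2.92 to 15.3. The filter on low counts removed Casp1. In a fit without that filter its log2 fold change was 2.58 with an edgeR adjusted p-value of 0.0762. Where a fit without 1 library kept Casp1, it passed the filter through its tamoxifen counts, so no test of it is given there.

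To ask whether the neighbours moved apart, the ratio of Casp4 to Casp1 counts was formed within each library. In oil 1, 3 and 4 it came to 7.17, 4.5 and 5.6, against 5, 2.56 and 4.65 in the tamoxifen libraries. The log2 ratio (0.5 added to each count) was 2.31 ± 0.33 in oil and 1.93 ± 0.52 in tamoxifen (SD, n = 3 each). The difference was -0.38 (two-sided exact permutation test, p = 0.5). With 3 libraries against 3 this p-value cannot go below 0.1, and the oil ratios rest on Casp1 counts of 3, 3 and 2.5. The comparison therefore cannot decide whether the neighbours moved apart. Ratios of 3 pairs of genes were tested in this way.

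Neither Gsdmd nor Gsdme was called in edgeR with all the libraries. Gsdmd (chromosome 15, 75862327 to 75867408, plus strand, ENSMUSG00000022575) had 74.3, 82.0 and 80.5 CPM in oil 1, 3 and 4 and 88.5, 88.7 and 83.9 CPM in tamoxifen 1, 2 and 4. The groups did not overlap but lay close together. The means of 78.9 ± 4.09 and 87.0 ± 2.73 CPM (SD, n = 3 each) gave a log2 fold change of 0.14 (SE 0.083, edgeR adjusted p-value 0.355). Leaving out tamoxifen 4 gave 0.17 with an edgeR adjusted p-value of 0.116.

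Gsdme, whose product is cut in apoptotic cells, lies on the minus strand of chromosome 6 from 50188888 to 50263862 (ENSMUSG00000029821). It had 12.8, 14.2 and 12.6 CPM in oil 1, 3 and 4 and 21.5, 23.7 and 11.99 CPM in tamoxifen 1, 2 and 4. Tamoxifen 1 and 2 were above all the oil libraries, and tamoxifen 4 was below them. The log2 fold change of 0.53 (SE 0.24) had an edgeR adjusted p-value of 0.259, and without tamoxifen 4 it was 0.78 (SE 0.13, edgeR adjusted p-value 0.00148). That call rests on leaving out 1 library. The ratio of Gsdme to Gsdmd counts was 0.172, 0.172 and 0.156 in oil but 0.243, 0.267 and 0.143 in tamoxifen, and the log2 ratios differed by 0.33 (two-sided exact permutation test, p = 0.4).

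The adaptor Pycard, which encodes ASC and links sensors to caspase-1, lies on chromosome 7 from 127989708 to 127993867 on the minus strand (ENSMUSG00000030793). It had 29.5, 34.6 and 30.9 CPM in oil 1, 3 and 4 and 32.0, 38.8 and 29.5 CPM in tamoxifen 1, 2 and 4. The groups overlapped. The log2 fold change was 0.079 (SE 0.13, edgeR adjusted p-value 0.743), and it was -0.040 without tamoxifen 2. Of the exon bases of Pycard, 485 of 3800 overlapped the gene model Gm45205, so its value is uncertain where the counting did not use strand.

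Among the sensors, Naip5 was the gene that passed the test. NAIP proteins bind bacterial flagellin or parts of the type III secretion apparatus and then assemble with NLRC4, and NAIP5 is a flagellin receptor. Naip5 (chromosome 13, 100211739 to 100246323, minus strand, ENSMUSG00000071203) had 13.2, 14.3 and 15.1 CPM in oil 1, 3 and 4 and 43.6, 42.9 and 22.4 CPM in tamoxifen 1, 2 and 4. The oil libraries were close together, tamoxifen 1 and 2 were almost equal, and tamoxifen 4 lay between them and oil. The means were 14.2 ± 0.955 CPM and 36.3 ± 12.01 CPM (SD, n = 3 each), a 2.56-fold difference. The log2 fold change was 1.36 (SE 0.24, edgeR adjusted p-value 0.0402), and it was 1.61 with an edgeR adjusted p-value of 1.569e-05 without tamoxifen 4. Leaving out any other library gave 1.20 to 1.40 and adjusted p-values from 0.117 to 0.209, which ended the call.

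Naip2, whose product recognises a rod protein of the secretion apparatus, is the neighbour of Naip5 (chromosome 13, 100144063 to 100202092, minus strand, ENSMUSG00000078945). It had 68.0, 73.9 and 77.3 CPM in oil 1, 3 and 4 and 86.1, 96.6 and 75.0 CPM in tamoxifen 1, 2 and 4. Tamoxifen 4 fell within the oil range. The log2 fold change of 0.23 (SE 0.11) had an edgeR adjusted p-value of 0.278, and without tamoxifen 4 it was 0.32 with an edgeR adjusted p-value of 0.0164. The call of Naip2 rests on leaving out that library.

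The ratio of Naip5 to Naip2 counts was nearly constant in oil, at 0.194, 0.193 and 0.195, and came to 0.506, 0.444 and 0.299 in tamoxifen 1, 2 and 4. The log2 ratio was -2.36 ± 0.0071 in oil and -1.30 ± 0.39 in tamoxifen (SD, n = 3 each). The difference of 1.07 had p = 0.1 in a two-sided exact permutation test, the smallest p-value that 3 libraries against 3 allow, and 0.3 after adjustment over the 3 ratios. The ratio was higher in every tamoxifen library than in any oil library. Naip6, another paralog and the other flagellin receptor of this cluster, had 15.8, 15.4 and 15.4 CPM in oil 1, 3 and 4 and 37.0, 36.0 and 21.1 CPM in tamoxifen 1, 2 and 4. Its log2 fold change was 1.02 (SE 0.21, edgeR adjusted p-value 0.0539) and a DESeq2 adjusted p-value of 0.000404.

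**Figure D2:**
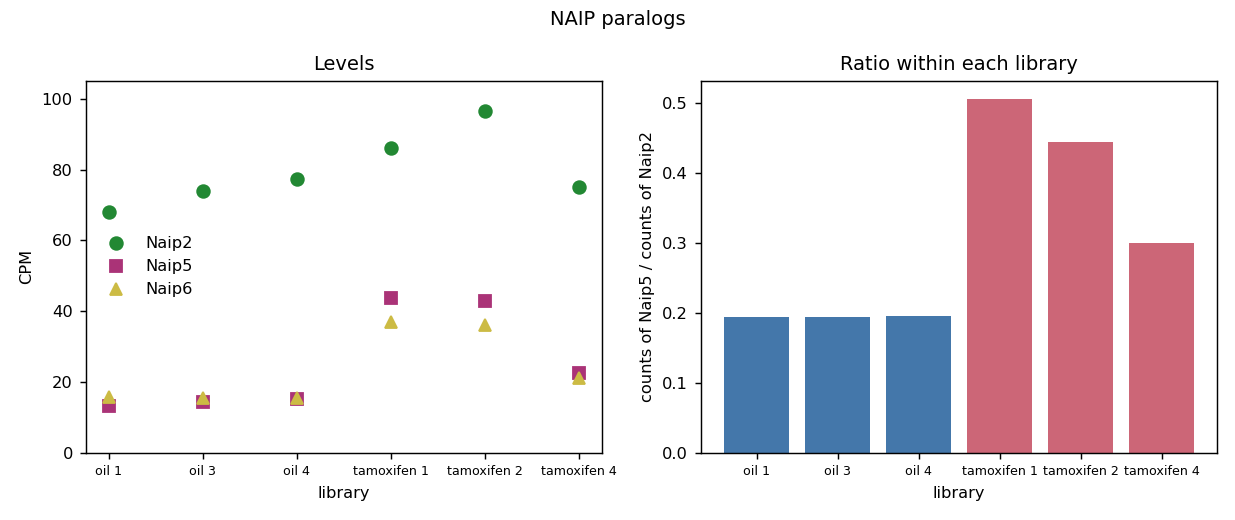
NAIP paralogs in each library. The left panel gives CPM on a linear axis for Naip2, Naip5 and Naip6, and the right panel gives, as bars from 0, the counts of Naip5 divided by those of Naip2, which were 0.193 to 0.195 in oil (blue) and 0.299 to 0.506 in tamoxifen (red).

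These paralogs share sequence, so their reads are uncertain. Of all 100-base stretches of the Naip5 transcript, 16.2% also occurred in another gene, with 8.72% in Naip3, 6.44% in Naip6, 3.57% in Naip1 and 1.31% in Naip2. The share was 4.55% for Naip2 and 6.26% for Naip6. How the counting treated such reads was not stated. Naip1, named after its values were seen, had at most 1.5 counts in any library. With Naip2, Naip5 and Naip6 summed to 1 row, a step chosen after the data were seen, these 3 rows had 96.9, 104 and 108 CPM in oil 1, 3 and 4 and 167, 175 and 119 CPM in tamoxifen 1, 2 and 4. The groups did not overlap, and the log2 fold change was 0.57 (SE 0.14, edgeR adjusted p-value 0.0885). The table holds another paralog row, Naip7, whose symbol was in neither GENCODE M21 nor the RefSeq table, so that its sequence was not compared. Named after its values were seen, Naip7 had 11.5, 10.7 and 11.1 CPM in oil 1, 3 and 4 and 27.0, 27.2 and 15.3 CPM in tamoxifen 1, 2 and 4, a log2 fold change of 1.06 (SE 0.22, edgeR adjusted p-value 0.0589). With Naip7 added to the sum the log2 fold change was 0.63 (SE 0.15, edgeR adjusted p-value 0.0817).

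Nlrc4, which encodes the partner of the NAIP proteins and recruits caspase-1, lies on chromosome 17 from 74425438 to 74459142 on the minus strand (ENSMUSG00000039193). It had 1.52, 1.84 and 1.03 CPM in oil 1, 3 and 4 and 5.16, 6.38 and 1.88 CPM in tamoxifen 1, 2 and 4. Tamoxifen 4 lay just above the highest oil library, while tamoxifen 1 and 2 were well above it. The means of 1.46 ± 0.409 and 4.47 ± 2.33 CPM (SD, n = 3 each) gave a log2 fold change of 1.6 (SE 0.47). The adjusted p-value was 0.127 in edgeR and 0.0193 in DESeq2. Without tamoxifen 4 the log2 fold change was 1.97 with an edgeR adjusted p-value of 0.0011. In edgeR the call of Nlrc4 rests on leaving out that library.

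The DNA sensor Aim2 (chromosome 1, 173350879 to 173466040, plus strand, ENSMUSG00000037860) had 20.8, 19.1 and 17.3 CPM in oil 1, 3 and 4 and 23.7, 23.6 and 21.3 CPM in tamoxifen 1, 2 and 4. The groups did not overlap. The means of 19.1 ± 1.74 and 22.9 ± 1.33 CPM (SD, n = 3 each) gave a log2 fold change of 0.26 (SE 0.12, edgeR adjusted p-value 0.269). Without tamoxifen 4 the log2 fold change was 0.31 with an edgeR adjusted p-value of 0.0747.

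Nlrp3, which encodes the sensor of potassium efflux and membrane damage, was not detectable at this depth (chromosome 11, 59541568 to 59566956, plus strand, ENSMUSG00000032691). It had 1 count in oil 1 and 0 counts in the other 5 libraries. A count of 0 allows up to 3 counts, or 0.145 to 0.177 CPM in a library, for counting error only.

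The libraries of the tamoxifen group did not move by the same amounts. On the scale of log2 CPM with a prior count of 2, tamoxifen 1, 2 and 4 were shifted from the oil mean by 1.62, 1.59 and 0.66 for Naip5, by 1.78, 2.09 and 0.38 for Nlrc4 and by 2.24, 1.69 and 1.48 for Casp4. Tamoxifen 4 had the smallest or most negative shift of the 3 tamoxifen libraries for each of the 9 genes that were detected. Casp1 and Casp4 remained clearly shifted in tamoxifen 4, by 1.46 and 1.48. By contrast, Nlrc4, Naip2, Gsdmd, Gsdme, Aim2 and Pycard did not exceed 0.38 in that library.

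**Figure D3:**
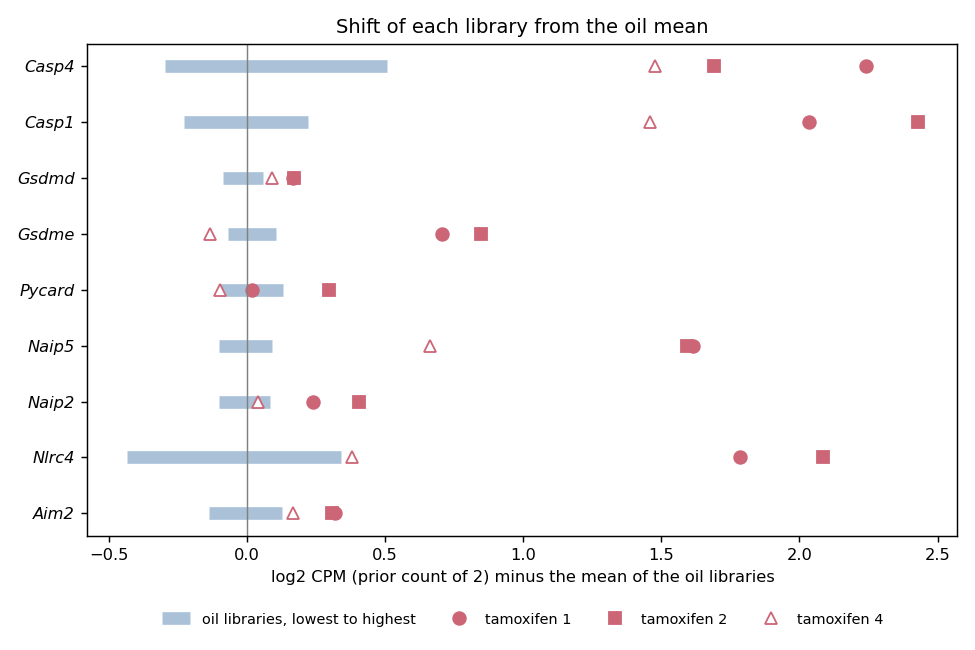
Shift of each tamoxifen library (red symbols, tamoxifen 4 open) from the mean of the oil libraries, in log2 CPM with a prior count of 2, for the 9 detected genes; the blue bar spans the lowest to the highest oil library. For Casp4, Casp1 and Naip5 all the tamoxifen libraries lay beyond the oil bar, and tamoxifen 4 was the leftmost red symbol in each row.

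Other genes of the pathway were read from 5 lists of 67 genes. Of these, 36 were tested, 13 had rounded counts of 0 in all the libraries, and 0 were called in edgeR in either direction, beside 12 higher and 3 lower at an unadjusted p-value under 0.05. Such an unadjusted p-value was reached by 12.6% of all tested genes in the higher and 7.99% in the lower direction. There were 21 positive and 15 negative log2 fold changes, with a median of 0.088. The DESeq2 Wald test called 5 higher (Naip6, P2rx7, Mlkl, Gbp3 and Irgm1) and 1 lower, where it called 6.14% of all genes higher and 1.99% lower; limma-voom called 0. Gbp3 and Irgm1 were named after their values were seen, the others by the rule for naming genes. Without tamoxifen 4, edgeR called 15 higher and 5 lower, where 19.2% and 17.1% of all tested genes were called. That fit tested 38 of the genes, and the 15 include a gene that was too low to be tested in all libraries. These counts therefore do not compare with those over the 36.

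The other sensors were mostly at very low counts. Of 11 genes, only Naip6 was tested, and 6 did not exceed 3 counts in any library, among them Nlrp1a, Nlrp1b, Nlrp12 and Mefv (pyrin). Nod1 and Nod2, sensors of bacterial peptidoglycan, had at most 7 and 4 counts. Nlrp6 had 3, 3 and 0 counts in oil 1, 3 and 4 against 14, 10 and 8 in the tamoxifen libraries, which did not overlap, but it was too low to be tested. These genes were named after their values were seen.

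Apoptotic and other caspases were mostly on the negative side. Of 7 genes, 6 were tested and 5 of these had negative log2 fold changes, with a median of -0.17. Casp2 was at -0.18 (edgeR adjusted p-value 0.311). Casp8, the initiator caspase of death receptors, which was named after its value was seen, was at 0.04 (SE 0.074).

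Of the other gasdermins and the membrane rupture genes, 7 of 10 did not exceed 3 counts. Gsdma had a log2 fold change of 0.28 (SE 0.23) and Ninj1, which encodes the protein that ruptures the membrane after the pores have formed, of -0.13 (SE 0.12). Neither passed the test.

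The cytokines that caspase-1 matures were scarcely measured. Il1b had at most 8 counts and Il18 at most 15.5 counts in a library, and neither was tested. Il33 and the receptor antagonist Il1rn had 0 counts in all the libraries. These 4 genes were named after their values were seen. Receptors were present. Il1rl1, the receptor for interleukin-33, had 1619, 1681 and 1665 CPM in oil 1, 3 and 4 and 2610, 2515 and 1598 CPM in tamoxifen 1, 2 and 4, a log2 fold change of 0.44 (SE 0.18, edgeR adjusted p-value 0.224). Tamoxifen 4 was below the oil libraries. Il18r1, with a mean of only 0.839 CPM in oil, was at 1.36 (SE 0.72) and Il1r1 at 0.67 (SE 0.35), with overlapping groups for both.

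Regulators gave 14 positive and 8 negative values among 22 tested genes of 27. The largest were Serpinb1a, an inhibitor of serine proteases and of inflammatory caspases, P2rx7, the ATP-gated channel upstream of NLRP3, and Mlkl, the pore-forming effector of necroptosis. P2rx7 had 15.4, 12.7 and 12.8 CPM in oil 1, 3 and 4 and 27.4, 43.0 and 17.9 CPM in tamoxifen 1, 2 and 4, a log2 fold change of 1.11 (SE 0.29, edgeR adjusted p-value 0.0962). Mlkl had 30.0, 23.4 and 27.2 CPM in oil and 48.7, 75.5 and 40.4 CPM in tamoxifen, a log2 fold change of 1.03 (SE 0.22, edgeR adjusted p-value 0.0641). For both genes each tamoxifen library was above each oil library. Serpinb1a was at 1.33 (SE 0.49, edgeR adjusted p-value 0.200), and its groups overlapped.

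**Figure D4:**
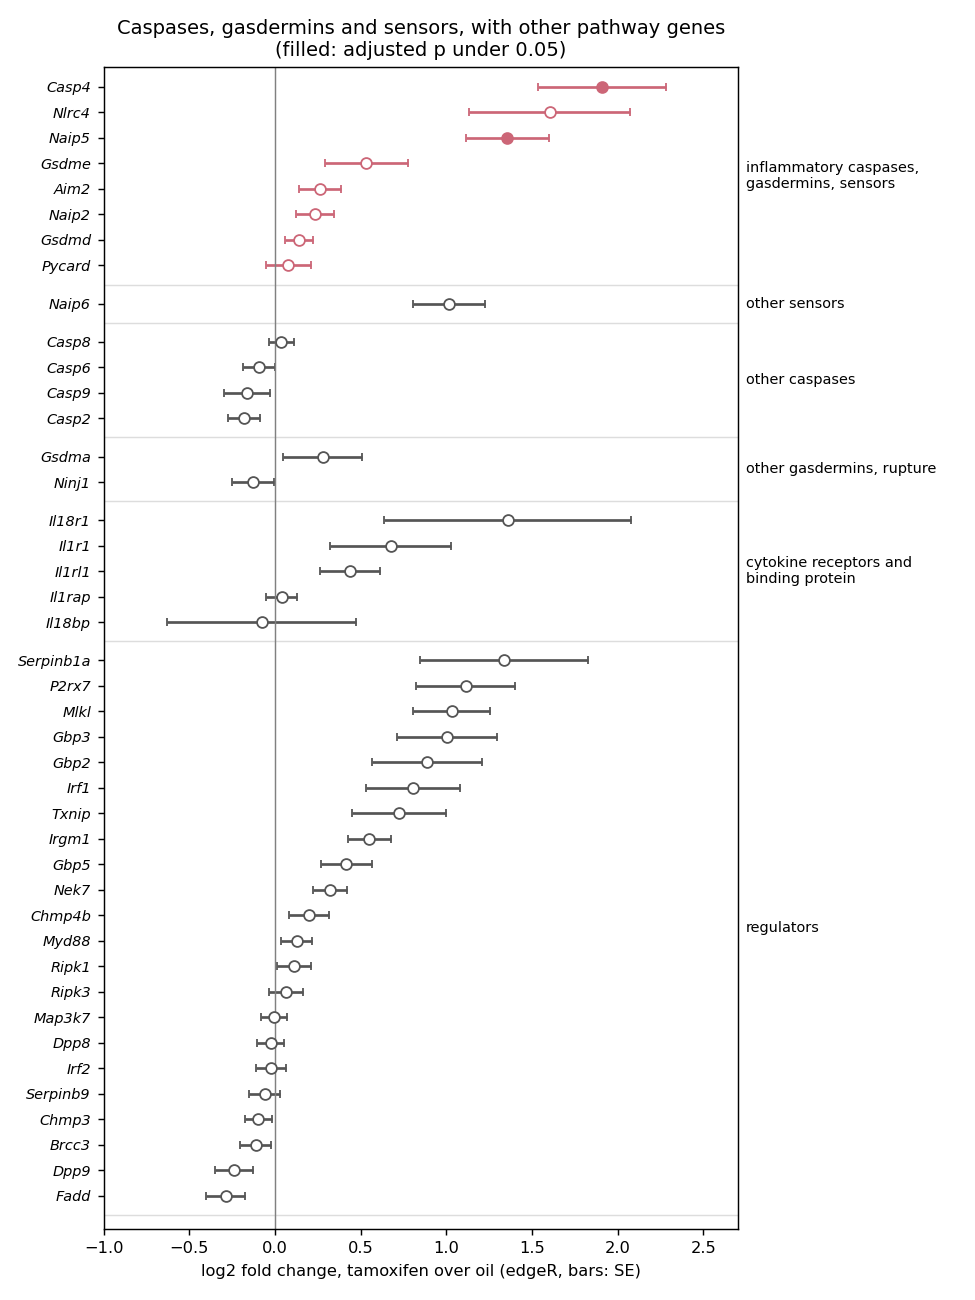
Log2 fold changes of tamoxifen over oil from edgeR, with bars of 1 SE, for the 8 tested caspases, gasdermins, adaptor and sensors (red) and other tested pathway genes (grey), grouped by list. Filled symbols, for Casp4 and Naip5, have an adjusted p-value under 0.05; all the red values are above 0.

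Markers of other cells were read beside these differences, since in bulk RNA fewer cells of a type and less RNA per cell cannot be told apart. Of 12 macrophage markers, 7 were tested, 5 of these were positive, 0 were called in edgeR, and 0 of the 12 were at 0 in all the libraries. Cd68 was higher at an unadjusted edgeR p-value under 0.05, which 12.6% of all tested genes reached in that direction. Vcam1 had a log2 fold change of 1.86, with 18.5, 19.5 and 9.5 counts in oil 1, 3 and 4. Tamoxifen 1, 2 and 4 held 55, 72.5 and 33.5 counts of it. Vcam1 passed the low-count filter only with the tamoxifen libraries, so no p-value of it is given. The summed level of the 12 macrophage markers was 4.41 to 8.67 CPM in oil and 7.68 to 14.9 CPM in tamoxifen, with overlapping groups. The defining marker Adgre1 (F4/80) did not exceed 10 counts. The 9 neutrophil markers summed to at most 1.03 CPM in oil and 1.24 CPM in tamoxifen, with S100a8 and Ly6g at 0 throughout. For the 8 monocyte and dendritic markers the sums were 20.3 to 23.9 CPM in oil and 20.9 to 38.4 CPM in tamoxifen, nearly all of it Ccr2, with Cd209a and Siglech at 0. The 9 T and NK cell markers summed to at most 0.103 CPM and the 5 B cell markers to at most 0.878 CPM.

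The 8 mast cell markers did not all move with the groups. Ms4a2 had 862, 909 and 917 CPM in oil 1, 3 and 4 and 830, 931 and 854 CPM in tamoxifen 1, 2 and 4. Its log2 fold change was -0.040. The groups overlapped for Ms4a2, Hdc and Mcpt4, while for the others each tamoxifen library was above each oil library. The same held for 13.3% of all tested genes. Of 8, all were tested and 7 were positive. Fcer1a was called higher in edgeR (2.12, adjusted p-value 0.0381), where 1.75% of all tested genes were called higher. Tpsb2 had a log2 fold change of 4.16. Tpsb2 was near the detection limit without tamoxifen, since no oil library exceeded 6.5 counts. It passed the low-count filter only through the tamoxifen group, where the lowest library reached 36.5. Its call in edgeR is therefore not counted, and no p-value of it is given. The summed level of the 8 markers was 2378 to 2643 CPM in oil and 3109 to 6844 CPM in tamoxifen. Cd34, a progenitor marker in the list of the sorted cells, rose from 9.95 ± 1.67 to 96.3 ± 48.3 CPM (SD, n = 3 each; edgeR adjusted p-value 0.0232). The 7 erythroid markers summed to 3822 to 5923 CPM in oil and 3063 to 7291 CPM in tamoxifen, and 1 of them was called lower in edgeR. Over all tested genes 0.267% were called lower. These marker genes were named after their values were seen. The part of these cells in the differences of Casp4, Casp1, Naip5 and Nlrc4 was not tested.

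For the 2 called genes, the tested genes with the most similar pattern over the 6 libraries were found by the root-mean-square distance between centred log2 CPM profiles. Nearest to Casp4 were Mt3 (0.182), Spink2 (0.213) and 2900052L18Rik (0.225). Nearest to Naip5 were Gadd45g (0.0912), Tgfbr1 (0.106) and Dusp23 (0.108). In this measure 0 would be an identical pattern on the log2 scale.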

How the data were processed

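RNA-seq was analysed for 6 libraries of sorted leukemia cells, 3 labelled oil and 3 labelled tamoxifen. The values are estimated counts for gene symbols as deposited, made from paired-end reads of 150 bases with STAR and DESeq2 on mm10 per the submitters' processing notes. The counting program, its strand setting and the annotation were not given in the sources used here. The labels name a Nextera DNA Flex kit. Between 25.9% and 27.4% of the values of a library were not whole, and counts were rounded before testing. The sample titles number the oil mice 1, 2 and 4 and the tamoxifen mice 1, 3 and 4, whereas the columns are numbered 1, 3, 4 and 1, 2, 4; the columns oil 3 and tamoxifen 2 were assigned by group only. Symbols of 26 rows had been turned into dates and were not named. No 2 replicates agreed within sampling noise (chi-square per degree of freedom at least 7.14).

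Counts were tested in R 4.3.3 with edgeR 4.0.16 (filterByExpr, TMM, quasi-likelihood F test, no covariate), adjusted by the Benjamini-Hochberg method over 11614 genes at a threshold of 0.05. A log2 fold change is tamoxifen over oil. Alternatives were other scalings, DESeq2 1.42.0, limma-voom (limma 3.58.1), other filters, a replicate block and each library left out in turn; unrounded counts and summed NAIP paralogs were added after seeing the data. Scripts were tested on simulated data. The 10 genes, the pathway and marker lists and the tests were chosen with earlier results of these data known. The genes named are the 10 members, Usp18, per pathway list at most 3 with the largest absolute log2 fold change among those tested as well as any called in edgeR, and the 3 nearest patterns of at least 1 CPM of each called gene. Others are said to have been named after their values were seen. Promoter windows and their coordinates came from RefSeq on GRCm38.p6, where the starts of Casp4, Naip5 and Naip2 differ from those in GENCODE M21. An earlier batch and ATAC-seq were not analysed here, and some single genes of the lists are not reported here.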

Additional observations from a re-analysis of the deposited data

How the results depend on the processing

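Of 111 values of the tested genes under alternatives, 110 kept their direction; the exception was Pycard, which ranged from -0.040 (without tamoxifen 2) to 0.16 with a library left out. No scaling moved the median of all genes by over 0.1 on the log2 scale, and the 3 ratios kept their direction with other added counts and with each library left out; their tests could not pass the threshold in any of these settings. Genes called higher numbered 203 and became 713 with the DESeq2 Wald test, 48 with limma-voom, 372 without a low-count filter, 120 at a mean of at least 50 counts and 8 to 2278 with a library left out. Genes called lower numbered 31 and became 231, 6, 61, 17 and 0 to 2024 under the same settings, where leaving out any library but tamoxifen 4 gave 0 lower in edgeR, beside 394 to 551 at an unadjusted p-value under 0.05.

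Of the caspases, gasdermins and sensors, 2 were called higher. This became 0 with limma-voom, 1 (Naip5) at a mean of at least 50 counts, where Casp4 was not tested, and 0 to 6 with a library left out, 6 of the 9 tested without tamoxifen 4 and 0 of 9 without each other library, beside 4 at an unadjusted p-value under 0.05 in edgeR. The 9 include Casp1, which passed the filter there through its tamoxifen counts and is 1 of the 6. Thus 5 of the 8 genes tested in all libraries were called without tamoxifen 4, where 19.2% of all tested genes were called higher and 17.1% lower. The 4 were counted over 9 genes with Casp1, so they do not compare with 3 of 8 in all libraries. Casp4 was called in 6 of 13 alternatives, with adjusted p-values from 0.000579 to 0.211, and Naip5 in 8 of 14, from 1.04e-05 to 0.209. Of the other pathway genes, 0 were called higher and 0 lower. The higher count became 1 (Naip6) with upper-quartile scaling, 5 with the DESeq2 Wald test, 3 (Naip6, Mlkl and Irgm1) without a filter and 0 to 15 with a library left out, and the lower count 1 with the DESeq2 Wald test and 0 to 5 with a library left out. The 15 were counted without tamoxifen 4 over 38 genes and include a gene that was too low to be tested in all libraries. The cause of these changes was not tested.

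The replicate block could use only the numbers 1 and 4, which both groups share, and left 1 residual degree of freedom. The deviations from the group means of libraries with the same number had correlations of -0.124 and 0.0631, and nothing beyond the number ties them. Under the replicate block 215 genes came out higher, 26 came out lower, and 1 of the caspases, gasdermins and sensors (Naip5) was called; Casp4 had 1.81 and an edgeR adjusted p-value of 0.0802.

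Depth limits Casp1, Casp4, Nlrc4 and Nlrp3, which had at most 108 counts in any library. Leaving out a library leaves 2 in a group, and the spread was then estimated over both groups.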
